A study of Mus musculus with 13 samples.

Results

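The eosinophil-associated ribonucleases are small secreted enzymes that cut RNA. The 5 family members described here, Ear1, Ear2, Ear6, Ear10 and Rnase2a, were taken by symbol from the 31053 genes of a single-cell RNA count matrix of a mouse lung study. Their counts were read in the 33618 of 37344 cell barcodes in which mitochondrial genes took at most 10% of the counts. Each count is a UMI, a molecular tag that marks 1 captured RNA molecule.

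The samples were named an ovalbumin asthma model (Asthma), a chronic elastase injury model (PPE-emphysema), an elastase injury followed by recovery (PPE-recovery) and a control group (Control), with 1 mouse each. PPE is porcine pancreatic elastase, given to the airways every week in the emphysema model and only once in the recovery model, and ovalbumin is the allergen of the asthma model. The control mice were instilled on the weekly schedule of the emphysema model, and what they received was not given in the sources used here. The animals were C57BL/6 mice whose age was not given in the sources used here, and the lungs were dissociated with protease, with no sort for a cell type named. A further 9 samples, 3 each of acute injury, Con and emphysema, were taken as bulk samples and not analysed here. The barcodes carry the numbers 1 to 7 of 7 libraries and no group, so levels are given per library number, the matrix counts as 1 sample, and no group comparison or test between conditions was made.

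The family belongs to the ribonuclease A superfamily. Its products are stored in the granules of eosinophils, and their human relatives are the eosinophil-derived neurotoxin and the eosinophil cationic protein, which act on RNA viruses and attract leukocytes. Rodents carry an expanded and fast-evolving cluster of these genes, and in the mouse lung some members are also known from alveolar macrophages, the phagocytes that patrol the airspaces and clear surfactant.

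All 5 members lie on chromosome 14 of GRCm38, within 8.04 Mb. On the minus strand, Ear1 (ENSMUSG00000072601) spans chr14:43818765-43875517, Ear10 (ENSMUSG00000090166) spans chr14:43922720-43923559 and Rnase2a (ENSMUSG00000047222) spans chr14:51255262-51256112. On the plus strand, Ear2 (ENSMUSG00000072596) spans chr14:44102654-44103534 and Ear6 (ENSMUSG00000062148) spans chr14:51853699-51854643. The order along the chromosome thus puts Ear1, Ear10 and Ear2 close to each other and Rnase2a and Ear6 further along. Rnase2b, a close relative outside the 5 members, lies before Rnase2a at chr14:51162260-51163018, with Ear14 at chr14:51203391-51204338 between them.

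The promoter stretches of the 4 members with more than a few UMIs are shown because these genes differ in which cells carry them while their promoters are closely alike. Each is the 250 bases before the RefSeq gene start (GRCm38.p6), written 5′ to 3′ on the strand of the gene. The gene spans given above are those of another annotation, GENCODE, which sets other starts for Ear1 and Ear6. By those spans the Ear1 stretch lies inside the gene and the Ear6 stretch runs past the gene start. The positions are chr14:43819640-43819889 on the minus strand for Ear1, chr14:44102404-44102653 on the plus strand for Ear2, chr14:51853518-51853767 on the plus strand for Ear6 and chr14:51256113-51256362 on the minus strand for Rnase2a. Capitals mark 2 features, a match to TTGCNNAA, the core letters of the sites read by C/EBP transcription factors of myeloid cells, and a 19-base stretch that Ear6 and Rnase2a hold and Ear2 lacks.
Ear1: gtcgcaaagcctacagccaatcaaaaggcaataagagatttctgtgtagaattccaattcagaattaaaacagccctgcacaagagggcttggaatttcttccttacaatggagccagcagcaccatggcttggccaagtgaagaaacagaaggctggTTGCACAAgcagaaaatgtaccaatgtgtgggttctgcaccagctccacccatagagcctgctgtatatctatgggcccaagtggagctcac
Ear2: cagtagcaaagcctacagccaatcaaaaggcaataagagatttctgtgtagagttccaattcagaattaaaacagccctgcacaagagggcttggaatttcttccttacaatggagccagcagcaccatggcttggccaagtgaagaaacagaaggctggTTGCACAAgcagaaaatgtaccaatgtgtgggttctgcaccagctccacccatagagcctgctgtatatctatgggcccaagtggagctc
Ear6: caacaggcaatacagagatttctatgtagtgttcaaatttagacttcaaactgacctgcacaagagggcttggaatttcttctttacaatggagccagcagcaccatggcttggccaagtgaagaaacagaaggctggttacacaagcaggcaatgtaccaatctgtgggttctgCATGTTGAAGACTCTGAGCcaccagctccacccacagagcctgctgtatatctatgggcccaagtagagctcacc
Rnase2a: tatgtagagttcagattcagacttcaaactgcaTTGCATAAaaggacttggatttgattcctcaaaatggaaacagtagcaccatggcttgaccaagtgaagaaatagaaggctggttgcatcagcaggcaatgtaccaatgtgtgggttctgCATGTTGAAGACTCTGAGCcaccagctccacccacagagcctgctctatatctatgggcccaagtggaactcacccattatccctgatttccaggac

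Over windows of 300 bases, which add the first 50 bases of the gene, Ear1 and Ear2 were 98.7% identical, Ear6 and Rnase2a were 89.6% identical, and Ear2 and Rnase2a were 81.1% identical. The capital stretch of 19 bases stood in 2 of the 6 family windows (Rnase2b and Ear10 included) and in 2 of all 32817 mouse windows of this length, inside a run of 56 bases that Ear6 and Rnase2a share. TTGCNNAA, read on both strands, matched 5 of the 6 family windows, Ear6 being the one without it, and 10.8% of all windows. In Ear1 the match began 92 bases before the gene start, in Ear2 90 bases before it and in Rnase2a 217 bases before it. AGATA, which holds the core of GATA factor sites and here overlapped the TATA-like run on the other strand, matched 6 of 6 windows against 29.6% of all windows. CCAAT also matched 6 of 6 (37.4% of all windows), and GAGGAA, the core of sites for PU.1, matched 1 of 6 (28.3%). These are matches of letters, and binding was not measured.

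The transcripts are alike as well, which bears on how reads can be assigned. Ear1 and Ear2 transcripts were 96.2% identical, Ear2 and Ear10 94.5%, and Ear6 and Rnase2a 77.5%. Of the 100-base windows of the Ear1 transcript, 147 of 614 (23.9%) occurred unchanged in Ear10 or the pseudogene Ear-ps9, and within its last 400 bases, where 3′ libraries are read, the share was 25.9%. For Ear2 it was 86 of 620 windows and 0 of 301 within the last 400 bases, and for Ear6 and Rnase2a it was 0. The counts of Ear1 and Ear10 are therefore uncertain where reads could belong to either, while those of Ear6 and Rnase2a share no such window with any other transcript.

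The 7 libraries were of 2 kinds. Libraries 1, 2, 3 and 7 held 20856 of the kept barcodes and lung epithelial RNA (Sftpc and Scgb1a1 together 8141 to 28830 per 1000000 UMIs), whereas libraries 4, 5 and 6 held 12762 barcodes, 16.1% to 20% of their UMIs from Hbb-bs, a hemoglobin gene, and under 1 per 1000000 of those epithelial genes. The libraries outnumber the single-cell samples named above, and the labels tie no sample to a library. No tissue is named for libraries 4, 5 and 6 on their own, and values over all kept cells include them. The kept UMIs ranged from 29619014 to 76435633 per library, and any pair of libraries shared 2 to 17 barcodes. Cells were grouped into 43 clusters without using the 5 members, and 21 classes were named from marker lists. Values below named for the lung libraries rest on libraries 1, 2, 3 and 7. Levels are UMIs per 1000000 UMIs (CPM) summed over the cells of a class, with 95% intervals that cover counting error only, as do all intervals below.

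The classes that carried the family were checked against their markers. The alveolar macrophages (3214 cells, 10 of 10 markers in at least 10% of the cells) held Marco at 222 CPM and Fabp1 at 157 CPM. These 2 genes were found in 35.5% and 38.6% of the cells. The Arg1 or Mmp12 macrophages (1501 cells, 8 of 8 markers) held Arg1 at 1480 CPM and the elastase gene Mmp12 at 3140 CPM, with the complement gene C1qa at 756 CPM as well. The alveolar macrophages were not free of these genes, with Mmp12 at 341 CPM in 28.0% of the cells and Arg1 at 59.1 CPM in 12.1%. The C1q macrophages (838 cells, 8 of 8 markers), the classical monocytes (2074 cells, 6 of 6) and the nonclassical monocytes (2015 cells, 8 of 8) completed the mononuclear phagocytes. Nonclassical monocytes are known as the Ly6C-low cells that patrol vessel walls. The class named so here was not free of Ly6c2, which it held at 329 CPM, in 26.6% of its cells, against 1409 CPM in the classical monocytes. The 363 cells highest in Ccr3, the eotaxin receptor, held 5 of 8 eosinophil markers and 7 of 8 basophil or mast cell markers in at least 10% of the cells, and 2 UMIs in all of Epx, the eosinophil peroxidase gene. Library 7 gave 223 of them. They are called the Ccr3 cluster and are given no cell type name.

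The 5 genes differed widely in how many cells carried them. Ear2 gave 125899 UMIs in 8512 cells (25.3% of the kept cells), Ear1 27317 UMIs in 3028 cells (9.01%), Rnase2a 5807 UMIs in 911 cells (2.71%), Ear6 401 UMIs in 220 cells (0.654%) and Ear10 5 UMIs in 5 cells. Ear2 was found in all 7 libraries, whereas Ear1 and Ear6 had 0 UMIs in libraries 4, 5 and 6 and Rnase2a had 1 there. These counts do not rank the genes by expression, since capture can differ between transcripts.

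**Figure D1:**
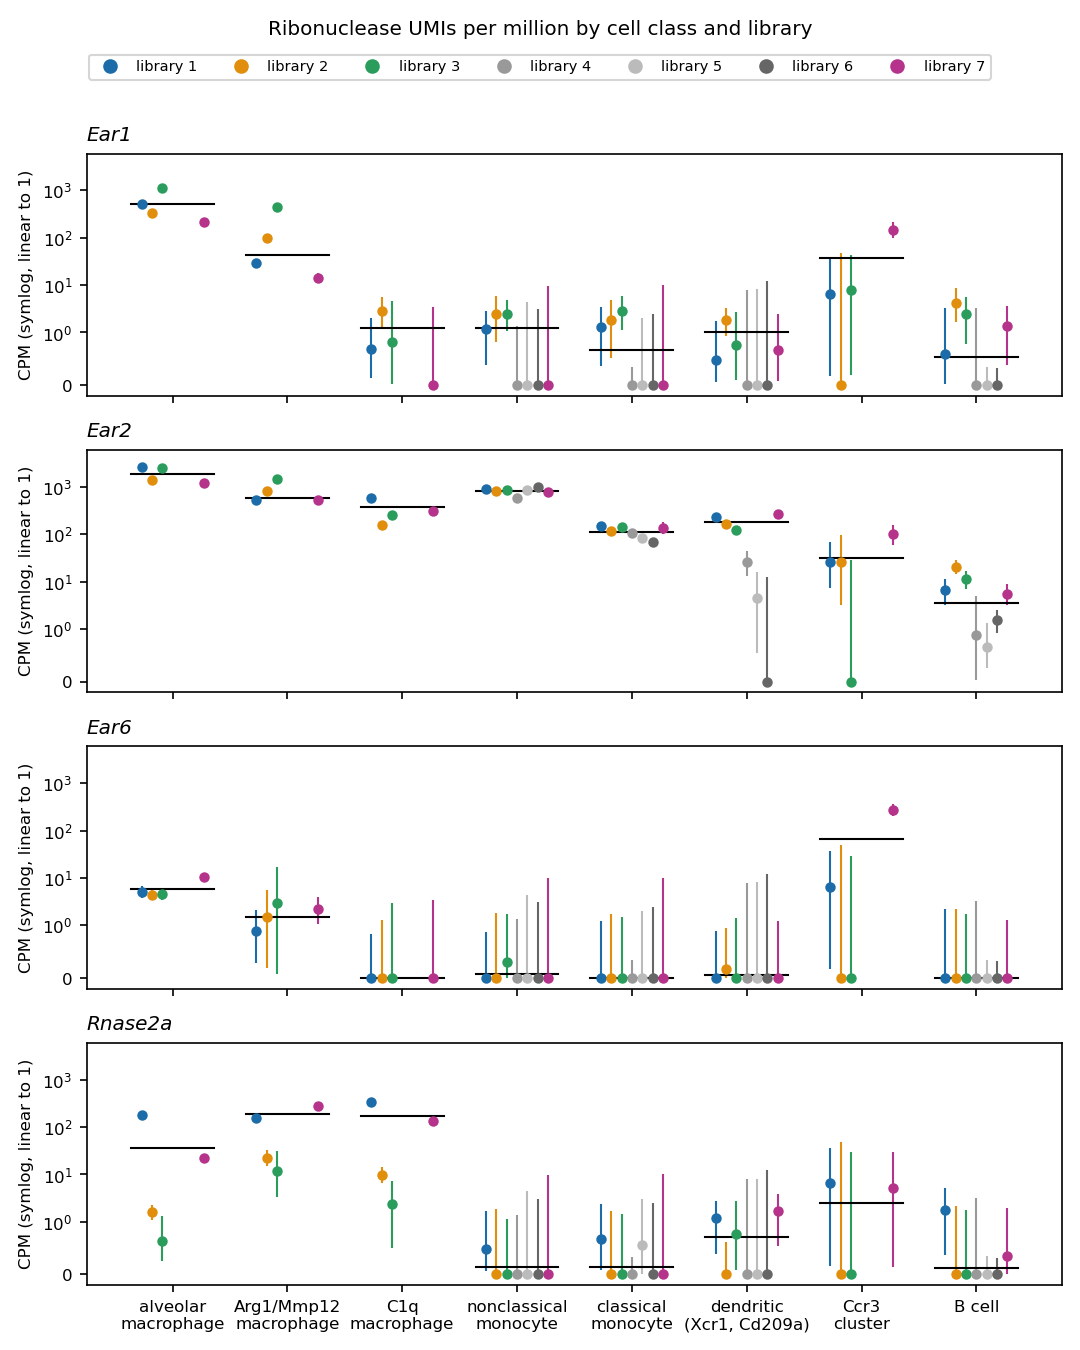
CPM of Ear1, Ear2, Ear6 and Rnase2a (symmetric log axes) in the cell classes, with points for single libraries and bars for the pooled value and its 95% counting interval. Ear1 and Ear2 are highest in alveolar macrophages (513 and 1828 CPM), Ear6 in the Ccr3 cluster (66.7 CPM, 53 of its 54 UMIs from library 7) and Rnase2a in the Arg1 or Mmp12 and C1q macrophages (185 and 173 CPM).

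Ear1 was a gene of the alveolar macrophages in these data. They held 93.8% of its UMIs, at 513 CPM (507 to 520), and 76.8% of them carried at least 1 UMI. By library the level was 523 CPM in library 1, 336 in library 2, 1112 in library 3 and 219 in library 7. Library 3 stood highest, 5.08 times (4.86 to 5.30) library 7, and no pair of these 4 intervals overlapped. The 3 clusters of the class were closer to each other, at 493 CPM in cluster 2, 596 in cluster 16 and 474 in cluster 30, whose leading genes are those of dividing cells (Plk1, Ccnb1). A single alveolar macrophage held up to 82 Ear1 UMIs.

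The next named class was the Arg1 or Mmp12 macrophages at 42.4 CPM (38.8 to 46.2), 12.1-fold lower (11.1 to 13.3). Within that class the libraries spread more widely, at 29.7, 96.7, 441 and 14.4 CPM in libraries 1, 2, 3 and 7, highest in library 3. The alveolar macrophages were higher in each of the 4, by 17.6, 3.47, 2.52 and 15.2 times. In library 3 the class came nearest to them, but there it had only 121 cells. Of these, the 120 without Rnase2a had a median of 737 UMIs, no Arg1 UMI and Mmp12 at 173 CPM. They held Marco and Fabp1, both alveolar macrophage markers, at 255 and 312 CPM. Their Ear1 level was 444 CPM, so the 441 CPM of the class in library 3 rests on them. Whether these cells are Arg1 or Mmp12 macrophages was not tested.

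Outside these macrophages Ear1 was scarce. C1q macrophages had 0.683, 2.79, 0.811 and 0 CPM in libraries 1, 2, 3 and 7, and nonclassical monocytes 1.19, 2.51, 2.47 and 0 CPM. No cell clustered as a monocyte held more than 1 Ear1 UMI. With cells assigned by single genes in place of clusters (Ace and Treml4 for nonclassical, Ly6c2 and Ccr2 for classical monocytes), the levels were higher, at 47.8 CPM (43.8 to 52.1; 109 in library 2 and 202 in library 7) and 15.1 CPM (13.8 to 16.4). Of those UMIs 447 of 519 (86.1%) and 462 of 523 (88.3%) lay in cells that were clustered as alveolar macrophages. B cells, which are not known to make it, had 17 UMIs in 17 cells, so single Ear1 UMIs in other classes cannot be told from free RNA picked up in the droplets. An exception to the low levels was cluster 17 of the smooth muscle cells or pericytes, at 44.7 CPM of Ear1 and 161 CPM of Ear2 against 1.69 and 8.17 CPM in cluster 26 of the same class. Up to 46 Ear1 UMIs lay in 1 cell of the class, which held the macrophage genes Spp1 at 711 CPM and Marco at 12.5 CPM, whose part was not tested. The 98 cells of the unnamed cluster 37, led by Ntrk2, Sema3g and Fabp4, also carried both genes, Ear1 at 217 CPM and Ear2 at 1078 CPM. These cells were deep, with a median of 18462.5 UMIs, and 43.9% of them held Siglecf, an alveolar macrophage marker (46.7 CPM). Barcodes holding several cells were not removed, and their part in this cluster was not tested.

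Ear2 had a broader pattern than Ear1, reaching monocytes and dendritic cells. It was highest in the alveolar macrophages at 1828 CPM (1817 to 1840), which held 72.5% of its UMIs, followed by the nonclassical monocytes at 825 CPM (810 to 840). Next came the Arg1 or Mmp12 macrophages at 587 CPM (573 to 601), the C1q macrophages at 379 CPM (367 to 392), a dendritic cell class led by Xcr1 and Cd209a at 180 CPM (174 to 187) and mature dendritic cells at 133 CPM (120 to 148). Classical monocytes had 113 CPM (109 to 118) and the smooth muscle cells or pericytes 106 CPM (99.8 to 113).

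This pooled order did not hold in every library. In library 3 the Arg1 or Mmp12 macrophages, at 1450 CPM, were above the nonclassical monocytes, at 866 CPM. Of these 121 library 3 cells, the 120 without Rnase2a had a median of 737 UMIs and no Arg1 UMI. They held Marco at 255 CPM, Fabp1 at 312 CPM and Ear2 at 1443 CPM, so the library 3 value of the class rests on them. In library 1 the C1q macrophages (580 CPM) were above the Arg1 or Mmp12 macrophages (539 CPM). In library 2 the C1q macrophages (159 CPM) and the dendritic cells led by Xcr1 (162 CPM) had overlapping intervals. Classical monocytes were above the smooth muscle cells or pericytes in libraries 1, 3 and 7, at 147, 143 and 135 against 44.2, 63.6 and 45.8 CPM, and below them in library 2, at 116 against 141 CPM. The alveolar macrophages were the highest of these classes in all 4 lung libraries.

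The nonclassical monocytes carried Ear2 in every library. Their levels in libraries 1 to 7 ran from 589 CPM in library 4 to 979 in library 6, with a median of 866. The lung libraries gave 760 to 898 CPM. Of the 3 hemoglobin-rich libraries, which lacked Ear1, library 5 (871 CPM) lay within the lung range, library 4 below it and library 6 above it. Their clusters differed in level, from 1145 CPM in cluster 8 to 388 in cluster 38 and 326 in cluster 20. Classical monocytes ranged from 67.8 CPM in library 6 to 147 in library 1, with a median of 116. The ranges of the 7 libraries did not overlap, and the ratio of nonclassical to classical monocytes lay between 5.51 (5.10 to 5.94) in library 4 and 14.4 (11.8 to 17.9) in library 6.

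In alveolar macrophages Ear2 was 2615 CPM in library 1, 1405 in library 2, 2553 in library 3 and 1227 in library 7. Libraries 1 and 3 were thus close to each other, as were libraries 2 and 7, a different order from Ear1, for which library 3 stood alone. The ratio to nonclassical monocytes of the same library was 2.91, 1.71, 2.95 and 1.61. Among the alveolar macrophage clusters, cluster 16 held more Ear2 (2576 CPM) than cluster 2 (1665) or the dividing cluster 30 (1233). In the Arg1 or Mmp12 macrophages the 4 libraries gave 539, 834, 1450 and 524 CPM, and in the C1q macrophages 580, 159, 252 and 305 CPM. Library 3 was highest in the former and library 1 in the latter. The 1450 CPM comes from the shallow library 3 cells with Marco and Fabp1 described above. The dendritic cells led by Xcr1 carried 125 to 263 CPM in the lung libraries and 0 to 25.6 CPM in libraries 4, 5 and 6. Mature dendritic cells had 161, 132, 17.9 and 142 CPM in libraries 1, 2, 3 and 7, the low value resting on 4 UMIs in 23 cells.

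B cells, which should lack Ear2, were read alongside as a background. They had 5.53 to 20.6 CPM in the 4 lung libraries and 0.659 to 1.56 CPM in libraries 4, 5 and 6. Classical monocytes were above the B cells of the same library in all 7. A neutrophil cluster of 190 cells, number 29, held Ear2 at 326 CPM (302 to 350), whereas another, number 32, held 10.7 CPM. All cells clustered as neutrophils held 886 Ear2 UMIs. When assigned by the single genes given above, 62 of these cells counted as nonclassical monocytes and held 376 of the UMIs. Another 348 counted as classical monocytes and held 203. The part of such cells in cluster 29 was not tested.

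Since the transcripts of Ear1 and Ear2 are so alike, the number of Ear1 UMIs per 100 Ear2 UMIs was compared between classes within a library. In alveolar macrophages it was 20, 23.9, 43.6 and 17.9 in libraries 1, 2, 3 and 7. In nonclassical monocytes it was 0.133, 0.305, 0.286 and 0 UMIs per 100, below the alveolar macrophages of the same library in each case. Ear2 UMIs thus did not carry a fixed fraction of Ear1 UMIs with them.

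The same number was read in other classes, some of which it did not separate from the alveolar macrophages. The Arg1 or Mmp12 macrophages had 5.5, 11.6, 30.4 and 2.76 Ear1 UMIs per 100 Ear2 UMIs, below the alveolar macrophages in each library. The C1q macrophages had 0.118, 1.75, 0.322 and 0. In B cells it was 9.09, 20, 21.7 and 25, on only 1, 7, 5 and 4 Ear1 UMIs. Their intervals were wide (0.211 to 62.5 in library 1) and overlapped those of the alveolar macrophages in each library. In the smooth muscle cells or pericytes it was 0 of 26 in library 1, 23.3 in library 2, 47.2 in library 3 and 40.9 in library 7, with intervals that overlapped those of the alveolar macrophages in libraries 2, 3 and 7 and lay below in library 1. The Ccr3 cluster of library 7 stood on the other side, with 28 Ear1 and 19 Ear2 UMIs, or 147 per 100 (79.4 to 279).

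**Figure D2:**
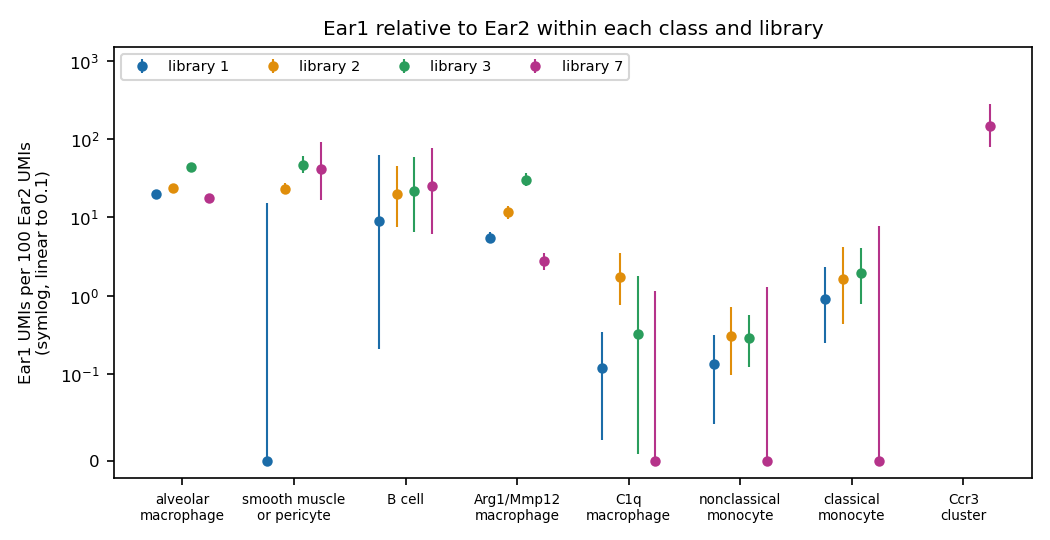
Ear1 UMIs per 100 Ear2 UMIs (symmetric log axis) in 8 classes, with 1 point per lung library and 95% counting intervals. Alveolar macrophages lie between 17.9 and 43.6, nonclassical monocytes at 0 to 0.305 and the Ccr3 cluster of library 7 at 147.

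Ear6 was the member with its highest level in the Ccr3 cluster. That cluster held 66.7 CPM (50.1 to 87.0), against 5.97 CPM (5.31 to 6.69) in alveolar macrophages, a ratio of 11.2 (8.20 to 15). The 66.7 CPM includes 28 cells of the hemoglobin-rich libraries, which held 0 Ear6 UMIs. In the lung libraries alone, where all the alveolar macrophages lay, the 335 cells of the cluster held 99.1 CPM (74.5 to 129). In number the order turned around, because the Ccr3 cells were few and shallow: 54 of the 401 Ear6 UMIs (13.5%) lay in the Ccr3 cluster and 298 (74.3%) in alveolar macrophages. Both figures rest on small counts.

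Library 7 decided the level in the Ccr3 cluster. It gave 53 of the 54 UMIs, at 278 CPM (208 to 363) in 223 cells with a median of 566 UMIs. Library 1 gave 1 UMI in 70 cells (6.58 CPM), and libraries 2 and 3 gave 0 in 21 cells each, with upper bounds of 48.7 and 29.2 CPM. The 70 cells of library 1 did hold Ccr3 at 165 CPM, Alox15 at 355 CPM and Prg2 at 112 CPM. Within library 7 the Ccr3 cluster was 26.5 times (18.8 to 36.9) the alveolar macrophages, while in library 1 the ratio was 1.27 (0.0314 to 7.43). Without library 7 the log2 ratio of the Ccr3 cluster to the alveolar macrophages was -1.53 (-6.84 to 0.97), on 1 UMI in the Ccr3 cluster, so the order of the pooled levels rests on library 7.

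The Ccr3 cluster was split by its receptor and by Mcpt8, a granule protease gene of basophils, to see which of its cells held Ear6. The 116 cells with Ccr3 and without Mcpt8 held 23 Ear6 UMIs (216 CPM), Ear1 at 122 CPM, Ear2 at 75.1 CPM and Prg2, the major basic protein gene, at 488 CPM. The 44 cells with Mcpt8 and without Ccr3 held 0 Ear6, 0 Ear1 and 0 Prg2 UMIs (each allowing up to 15.2 CPM) and 3 Ear2 UMIs. The 192 cells with neither held the other 31 Ear6 UMIs (67.6 CPM), and the 11 cells with both held 0. Within library 7 alone, the 95 cells with Ccr3 and without Mcpt8 had 308 CPM (195 to 463) and the 120 cells with neither had 407 CPM (275 to 582), so Ear6 was found with and without a Ccr3 UMI in these shallow cells. Only 6 of the 44 cells with Mcpt8 and without Ccr3 came from library 7, where their 0 UMIs allow up to 93.0 CPM.

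Ear1 and Ear2 were also present in the Ccr3 cluster of library 7, at 147 and 99.6 CPM, in 14 cells each. The alveolar macrophages of that library exceeded it by 1.49 times (1.03 to 2.25) for Ear1 and by 12.3 times (7.89 to 20.5) for Ear2. Marco and Fabp1 gave 2 and 1 UMIs in the whole Ccr3 cluster. Prg2 (451 CPM), Alox15 (818 CPM), Siglecf (220 CPM) and Ccr3 (849 CPM) were present in the cells of library 7, whereas Il5ra, the interleukin-5 receptor gene, had 6 UMIs in the whole cluster. Rnase2a had 2 UMIs there (2.47 CPM, 0.299 to 8.92).

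In alveolar macrophages Ear6 was low, at 5.19, 4.48, 4.53 and 10.5 CPM in libraries 1, 2, 3 and 7. Libraries 1, 2 and 3 were alike, and library 7 was the highest here too, with an interval (8.68 to 12.6) above those of the other libraries. The UMIs came from 166 cells. The Arg1 or Mmp12 macrophages had 1.5 CPM (0.890 to 2.37), the C1q macrophages had 0 UMIs, and classical and nonclassical monocytes together had 1 UMI. No B cell held an Ear6 UMI.

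**Figure D3:**
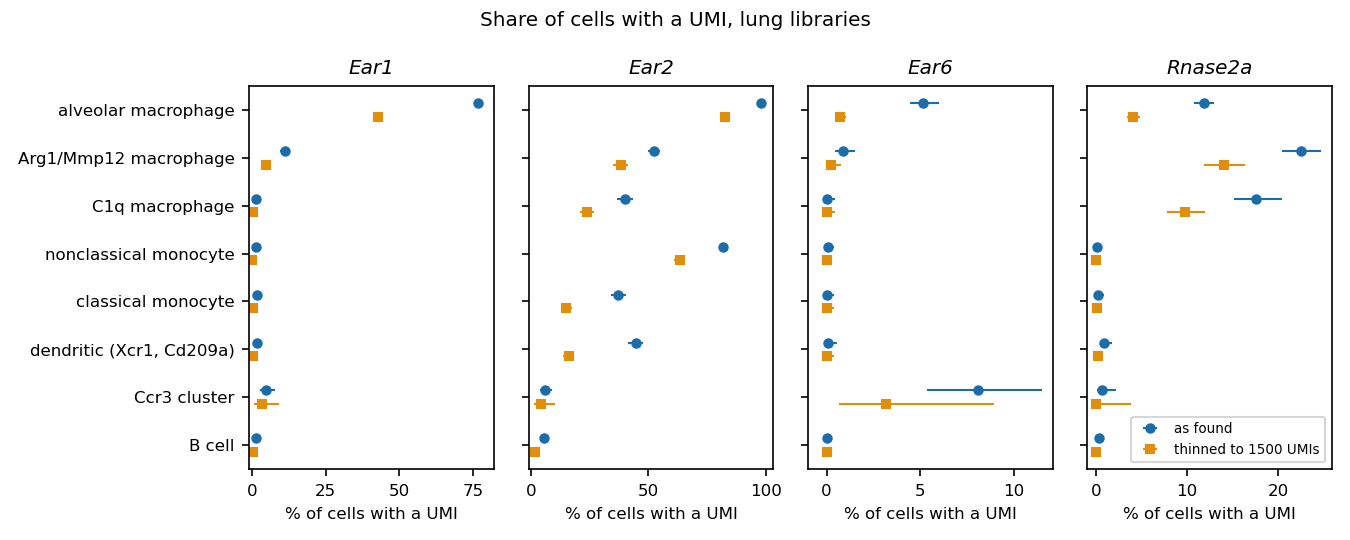
Percent of cells with at least 1 UMI of each member in the lung libraries, as found and after thinning each cell to 1500 UMIs, with 95% binomial intervals. Ear2 stays highest in alveolar macrophages (97.9%, 82.7% thinned). For Ear6 the share is highest in the Ccr3 cluster (8.06%, 3.16% thinned), with intervals that overlap those of alveolar macrophages as found and thinned. The thinned value rests on 95 of the 335 Ccr3 cells.

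Shares of cells follow depth, so they were read after each cell was thinned to 1500 UMIs, which left shallower cells out. Ear1 was then found in 42.6% of alveolar macrophages (76.8% as found), in 4.52% of Arg1 or Mmp12 macrophages (11.1%), in 0.126% of C1q macrophages (1.20%) and in 0.374% of B cells (1.24%). The C1q macrophages were thus no higher than the B cell background. Ear2 was found in 82.7% of alveolar macrophages, 63.3% of nonclassical monocytes, 38.2% of Arg1 or Mmp12 macrophages, 23.7% of C1q macrophages, 15.1% of classical monocytes and 1.72% of B cells, the same order as for its CPM. The unthinned shares were 97.9%, 81.8%, 52.3%, 40%, 37.2% and 5.64%.

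For Ear6 the thinned share was 3.16% (0.656 to 8.95) in the Ccr3 cluster and 0.690% in alveolar macrophages, but 240 of the 335 Ccr3 cells were too shallow to enter. Rnase2a was found in 14% of Arg1 or Mmp12 macrophages (22.5% as found), 9.71% of C1q macrophages (17.6%), 4.04% of alveolar macrophages (11.9%) and 0 of the B cells (0.293%). Thinning left out 532 of the Arg1 or Mmp12 macrophages, whose median depth in the lung libraries was 3141 UMIs, 41 C1q macrophages (median 10532), 24 alveolar macrophages (15002) and 28 B cells (4013.5).

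Rnase2a was carried by all 3 kinds of macrophage and was uneven between libraries. The pooled level was 185 CPM (177 to 193) in Arg1 or Mmp12 macrophages, 173 CPM (165 to 182) in C1q macrophages and 36.5 CPM (34.9 to 38.3) in alveolar macrophages. The first pair did not differ beyond their intervals, with a ratio of 1.07 (0.999 to 1.14). Libraries 1 and 7 gave 3975 and 1725 of the 5807 UMIs, and libraries 2 and 3 gave 89 and 17.

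The pooled tie hid opposite orders of CPM in libraries 1 and 7. Arg1 or Mmp12 macrophages had 158, 22.7, 12.0 and 282 CPM in libraries 1, 2, 3 and 7, and C1q macrophages had 340, 9.77, 2.43 and 133 CPM. In library 1 the Arg1 or Mmp12 macrophages were the lower, at 0.464 times (0.427 to 0.505) the C1q macrophages. In library 7 they were the higher, at 2.12 times (1.78 to 2.54), and in library 2 at 2.32 times (1.34 to 4.03). The cells with Rnase2a numbered 160 and 127 in library 1, 166 and 11 in library 7, and 6 and 7 in library 2. In library 2 they were 3.31% (1.23 to 7.08) and 2.43% (0.983 to 4.94) of their classes, so no order is taken there. In library 3 the ratio was 4.94 (0.835 to 33.7), on 4 and 3 UMIs. In library 1 the cells with Rnase2a were 29.4% (25.6 to 33.4) and 38.4% (33.1 to 43.8), intervals that also overlapped. With cells assigned by single genes, library 1 gave 225 CPM (214 to 236) and 257 CPM (242 to 272). The shares then had the opposite order, at 45.2% (41.3 to 49.2) and 31.5% (26.5 to 36.8). By share, the order in library 1 thus depended on how the classes were defined.

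Alveolar macrophages changed most between libraries. Their Rnase2a level was 177 CPM (168 to 186) in library 1, 1.58 in library 2, 0.635 in library 3 and 22.7 in library 7. In library 1 the Arg1 or Mmp12 macrophages were 0.893 times (0.821 to 0.971) as high. They were 14.3 times (8.34 to 24.6) as high in library 2, 18.9 (4.06 to 74.4) in library 3 and 12.4 (10.9 to 14.3) in library 7. In libraries 2, 3 and 7 only 6, 1 and 166 Arg1 or Mmp12 macrophages held Rnase2a, against 22, 3 and 68 alveolar macrophages. Within library 1 the level was 224 CPM in cluster 16, whose leading genes include Fbp1 and Krt79, 194 in the dividing cluster 30 and 62.0 in cluster 2. A single alveolar macrophage held up to 39 Rnase2a UMIs, and a single C1q macrophage up to 133.

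The Rnase2a level of alveolar macrophages depended on how they were defined. When cells were instead assigned by their own UMIs of a few genes, with Marco and Fabp1 for alveolar macrophages and Arg1 and Mmp12 for the other kind, Rnase2a was 4.37 CPM (3.18 to 5.87) in the former, in 3.02% of 663 cells, and 186 CPM (179 to 193) in the latter. In library 1 the values were 30 CPM (20.1 to 43.1) and 225 CPM (214 to 236), so the near tie of the clustered classes there was absent. Of the 1370 cells assigned by Arg1 and Mmp12, 519 were clustered as alveolar macrophages, and these held 1097 of the 2926 Rnase2a UMIs (37.5%). The clustered alveolar macrophages held 1824 Rnase2a UMIs in all, so most of them lay in cells with more Arg1 and Mmp12 UMIs than Marco and Fabp1 UMIs.

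Cells with a Rnase2a UMI were set beside cells of the same class and library without one. Among the alveolar macrophages of library 1, the 288 cells with Rnase2a held Mmp12 at 2551 CPM and the scavenger receptor gene Marco at 84.4 CPM, against 721 and 184 CPM in the 361 cells without it. Ear2 was 3189 against 2033 CPM, Ear1 537 against 509 CPM and Arg1 123 against 134 CPM. In library 7, the 68 alveolar macrophages with Rnase2a held Arg1 at 467 CPM and Mmp12 at 508 CPM, against 64.7 and 89.5 CPM in 526 without it, Ear1 at 131 against 232 CPM and Ear2 at 1259 against 1222 CPM. In library 2, the 22 carriers held Arg1 at 175 CPM and Mmp12 at 300 CPM, against 23.1 and 48.5 CPM in 1178 others. Ear1 there was 107 against 341 CPM and Ear2 1631 against 1399 CPM. Mmp12 was thus higher in the carriers of libraries 1, 2 and 7, and Arg1 in those of libraries 2 and 7. Ear1 was lower in the carriers of libraries 2 and 7. Carriers were deeper in each, with medians of 14251 against 11104 UMIs in library 1 and 20829.5 against 17816.5 in library 7. The part of depth was not tested.

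In the other macrophages set side by side here, carriers of Rnase2a had the higher Ear2 level. In the Arg1 or Mmp12 macrophages of library 7, the 166 carriers of Rnase2a held Ear2 at 862 CPM and Mmp12 at 6573 CPM, against 252 and 2685 CPM in the 470 others. In library 1 the 160 carriers held Ear2 at 684 against 420 CPM, and in the C1q macrophages of library 1 the 127 carriers held Ear2 at 855 against 398 CPM. Carriers among the Arg1 or Mmp12 macrophages were deeper cells, with medians of 15316 against 3725 UMIs in library 1 and 10848 against 2210 in library 7, and the part of depth in these levels was not tested. In the C1q macrophages of library 1 the depths were alike, at 13030 and 13111 UMIs.

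Members met in the same cells in part. In thinned Arg1 or Mmp12 macrophages, 85 cells held both Ear2 and Rnase2a where independent detection within each library would give 47.0, a ratio of 1.81 (1.44 to 2.24), and 25 held Ear1 and Ear2 where it would give 13.5 (1.85, 1.20 to 2.73). In thinned alveolar macrophages Ear1 and Ear2 met in 1260 cells against 1168 (1.08, 1.02 to 1.14), and Ear1 and Rnase2a in 55 against 54.7. Ear2 and Rnase2a met in 103 C1q macrophages, as found, against 86.7 (1.19, 0.970 to 1.44), which lay within counting error of independence.

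Ear10 stayed at the edge of detection, with 5 UMIs in all. They lay in 1 nonclassical monocyte of library 1, 1 C1q macrophage of library 2, 2 alveolar macrophages of library 3 and 1 dendritic cell of library 7. Each of these cells also held Ear2, with 5, 37, 92, 43 and 2 UMIs, and the 2 alveolar macrophages held 39 and 17 Ear1 UMIs. Of the Ear10 transcript's 100-base windows 140 of 579 (24.2%) occurred in Ear1, Ear2 or Ear-ps2, and within the last 400 bases 32 of 301 (10.6%) did, so these 5 UMIs cannot be assigned with certainty.

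For each member the 5 genes with the most similar levels over 40 clusters were listed, by Pearson's r of log2(CPM + 1) among 12789 genes. The clusters share libraries and differ in depth, so r describes these clusters and has no p. For Ear1 they were Krt79 (0.95), Cidec of lipid droplets (0.94), Gm6116 (0.93), Fabp1 (0.93) and the proton pump subunit gene Atp6v0d2 (0.92), of which all but Gm6116 are among the markers that named the alveolar macrophages. For Ear2 they were Lilra5 (0.93), Sh2d1b1 (0.90), the lipid receptor gene Trem2 (0.90), Dpep2 (0.89) and the lectin gene Clec4b1 (0.89). Of these, Trem2 is among the markers that named the Arg1 or Mmp12 macrophages.

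Ear6 gave only 401 UMIs, with 0 in B cells, T cells and classical monocytes. How far such low counts limit its r was not tested. Ear6 had no gene as close as those listed for Ear1 and Ear2. Its list was Plet1 (0.78), Siglecf (0.75), which encodes a sialic acid receptor of eosinophils and alveolar macrophages, Il1a (0.74), Rab44 (0.71) and Ear1 (0.71). Plet1 and Siglecf are among the markers that named the alveolar macrophages. For Rnase2a the list was Mmp12 (0.89), AU022793 (0.87), the gluconeogenic enzyme gene Fbp1 (0.87), the growth factor gene Pdgfc (0.85) and Prune2 (0.84). Mmp12 is among the markers that named the Arg1 or Mmp12 macrophages. Among the members the highest value was 0.71 for Ear1 and Ear6 and the lowest 0.39 for Ear2 and Ear6. Ear1 and Ear2, with nearly identical promoters, reached 0.64, and Ear6 and Rnase2a, which share the 19-base stretch, reached 0.45.

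The other genes of the ribonuclease A superfamily were read from a list of 29, of which 20 were in the matrix and 15 were not members. Of these 15, 7 had at least 20 UMIs and 6 had none. Rnase2b, close to Rnase2a on the chromosome, gave 589 UMIs and was highest in alveolar macrophages at 9.34 CPM (8.51 to 10.2), with 14.1, 11.3, 3.08 and 8.44 CPM in libraries 1, 2, 3 and 7. It was also found at 2.93 CPM in classical monocytes, from 1.92 to 5.57 CPM over all 7 libraries, and had 0 UMIs in C1q macrophages, where Rnase2a was 173 CPM. Over the 40 clusters its r with Ear1 was 0.84.

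Rnase4, Ang and Rnase6 had their highest levels outside macrophages, but macrophages carried them too. Rnase4, an angiogenin-like secreted ribonuclease gene, was highest in alveolar type 2 cells (874 CPM), fibroblasts (464 CPM) and lymphatic endothelial cells (463 CPM), and its neighbour Ang, encoding angiogenin, was highest in alveolar type 2 cells (158 CPM) too. Rnase6, an antimicrobial ribonuclease gene, was highest in plasmacytoid dendritic cells (1144 CPM) and reached 264 CPM in nonclassical and 205 CPM in classical monocytes, but 79.4 CPM in alveolar macrophages. Rnase1, Rnase10 and Rnase12 gave 37, 20 and 82 UMIs. Rnh1, whose product binds and blocks ribonucleases of this superfamily inside cells, was 371 CPM in Arg1 or Mmp12 macrophages and 328 CPM in alveolar macrophages, against 190 CPM in classical monocytes, 128 CPM in nonclassical monocytes and 52.3 CPM in B cells.

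**Figure D4:**
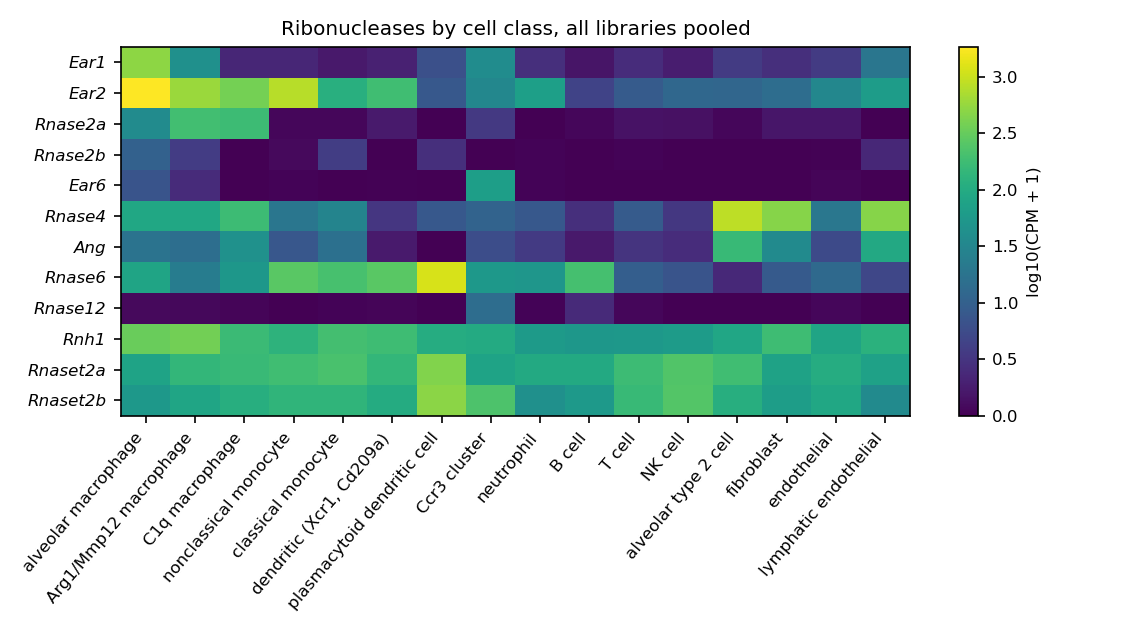
CPM of the members and of other ribonuclease genes in the named classes of the kept cells, pooled over libraries. Ear1, Ear2 and Rnase2b are highest in alveolar macrophages, Rnase4 and Ang in alveolar type 2 cells and Rnase6 in plasmacytoid dendritic cells.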

How the data were processed

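The authors made the matrix with Cell Ranger 3.1.0 and STAR on mm10, as named in the submitters' processing notes, and down-sampled reads between libraries. What was deposited is a matrix of raw UMI counts. The 5 members and the gene lists were chosen with earlier results of these data known.

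Barcodes with over 10% mitochondrial UMIs were left out. Counts were scaled to 10000 per cell, and 2000 variable genes without the members gave 30 principal components, aligned between libraries by mutual nearest neighbors, 20 neighbors and Leiden clusters at resolution 0.8 (Python 3.11.15, numpy 2.4.6, scipy 1.17.1, pandas 2.3.3, scanpy 1.11.5, leidenalg 0.10.2, python-igraph 0.11.9, scikit-learn 1.9.0, matplotlib 3.10.9, Biopython 1.88). Clusters under 50 cells were set aside. A cluster took the name of the highest of 29 marker lists if at least 3 markers lay in 10% of its cells and no other list had more markers among its top 10 genes. After the clusters were seen, the cluster highest in Ccr3 was kept as a class, and a cluster that shared 2 leading genes with one of another lineage stayed unnamed. Doublets were not removed in the main analysis. Scrublet called 744 barcodes, with 0, 15 and 1 in libraries 4, 5 and 6, so the calls are of little use there.

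Levels are UMIs per 1000000 with exact 95% Poisson intervals, shares have exact binomial intervals and ratios exact conditional binomial intervals. A count of 0 is taken to allow up to 3 counts, unless the upper bound of its 95% interval is given. Library values need at least 20 cells unless the count itself is given. Genes named besides the members are those of the ribonuclease list with at least 20 UMIs, class markers, and the 5 genes most correlated with each member. Code was tested on simulated data. No condition was compared, since the matrix was used as 1 sample.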

Additional observations from a re-analysis of the deposited data

Results flagged for a closer look

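The 3726 barcodes with over 10% mitochondrial UMIs, which entered no result above, also held the family. Ear1 was 95.8 CPM in them, Ear2 562 CPM, Ear6 0.732 CPM and Rnase2a 62.4 CPM, each above the 0.220 CPM that a count of 0 allows there, and Ear10 had 0 UMIs. In the kept barcodes the values were 93.7, 432, 1.38 and 19.9 CPM. Of the 3726 barcodes 3488 came from libraries 1, 2, 3 and 7, and their cell classes were not determined.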

How the results depend on the processing

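The log2 ratio of the highest class to the next named class is given for each member. For Ear1 it was 3.6 (alveolar over Arg1 or Mmp12 macrophages), and became 5.07 with limits on UMIs and genes per cell, 4.69 without alignment of libraries, 4.10 at resolution 1.5, 3.78 without Scrublet calls and 2.11 with classes gated on markers. For Ear2 it was 1.15 (alveolar macrophages over nonclassical monocytes), and became 0.53 at 5% mitochondrial UMIs, 0.94 with the limits, 0.79 without alignment, 0.77 at resolution 0.4, 0.81 at resolution 1.5 and 1.01 with gates. For Ear6 it was 3.48 (Ccr3 cluster over alveolar macrophages), and became 4.24 with the limits. For Rnase2a it was 0.09 (Arg1 or Mmp12 over C1q macrophages), and became 0.21 with the limits, -0.07 at resolution 1.5 and 0.39 with gates. The cause of these shifts was not tested. Leaving out each library in turn gave 3.25 to 4.13 for Ear1, 1.0 to 1.34 for Ear2, -1.53 to 3.85 for Ear6 and -0.52 to 2.64 for Rnase2a. The low end for Ear6 and for Rnase2a was without library 7, and the high end for Rnase2a without library 1. At 5% mitochondrial UMIs no Arg1 or Mmp12 class was named, so Ear1 and Rnase2a had no value, and Ear10 had too few UMIs for a ratio. No paired analysis was possible because the labels tie none of the library numbers to a condition. Depth limits Ear6 and Ear10 most, with 401 and 5 UMIs.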
